A study of Mus musculus with 12 samples.

Results

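Interleukin-10 (IL-10) added to hemin was compared with hemin alone in oligodendrocyte progenitor cells of the mouse, the dividing glia from which the myelin-forming oligodendrocytes of the brain develop. The comparison takes the 6 RNA-seq libraries whose titles name hemin with IL-10 or hemin, 3 in each group, out of 12 in the series. All cells were wild-type primary cells from mouse brain and were treated for 12 h. The 3 libraries of hemin with IL-10 came from cells given 50 µM hemin and 10 ng/mL IL-10, and the 3 hemin libraries from cells given 50 µM hemin. The other 6 libraries serve only as context and for the estimate of the spread. They came from cells given the same hemin and IL-10 together with the STAT3 inhibitor stattic at 2.5 µM (3 libraries), and from cells given vehicle, dimethyl sulfoxide (3 libraries). No library had IL-10 without hemin, so the response to IL-10 alone is not covered. The labels give neither the age, sex or number of animals nor whether replicates were separate cultures, so a p-value here speaks only for the variation among the libraries, and that variation may be technical.

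Hemin is the oxidised form of heme, which is released from haemoglobin after bleeding, and cells break it down with heme oxygenase to biliverdin, carbon monoxide and iron. IL-10 is an anti-inflammatory cytokine. It binds a receptor made of the chains IL-10Rα and IL-10Rβ, activates the kinases JAK1 and TYK2, and drives the transcription factor STAT3 into the nucleus, where Socs3, which encodes a feedback inhibitor of cytokine signalling, is a classical target. In the brain, microglia and macrophages carry the α chain.

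No gene passed the test for IL-10 added to hemin. Of 13967 genes tested with edgeR's quasi-likelihood test, 0 had a Benjamini-Hochberg adjusted p under 0.05 (0% called). The gene closest to the threshold was Dlk1, which was 9.55-fold higher with IL-10 (adjusted p 0.0735), and the smallest adjusted p of any other gene was 0.999. Dlk1 passed in 3 of the alternative analyses. Without adjustment, 337 genes had p under 0.05, of which 76 were higher with IL-10 (0.544% of genes tested) and 261 lower (1.87%). The 3 values of hemin with IL-10 all lay above the 3 hemin values for 504 genes (3.61%) and all below for 709 (5.08%). Of the gene lists, markers of microglia and macrophages had the lowest median change, and all 3 values of Socs3 with IL-10 lay below those of hemin. Because only adjusted p-values decide a call, the values below are descriptions unless a test is named.

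STAT dimers bind the palindrome TTCNNNGAA, which reads the same on both strands. The RefSeq promoters (300 bases, 250 before to 50 after the start, build GRCm38.p6) of Socs3 and Dlk1 are shown because Socs3 is the textbook STAT3 target and Dlk1 had the smallest p of all genes. Socs3 lies on the minus strand at chr11:117969317-117969616 and Dlk1 on the plus strand at chr12:109452573-109452872. Capitals mark the motif.
Socs3: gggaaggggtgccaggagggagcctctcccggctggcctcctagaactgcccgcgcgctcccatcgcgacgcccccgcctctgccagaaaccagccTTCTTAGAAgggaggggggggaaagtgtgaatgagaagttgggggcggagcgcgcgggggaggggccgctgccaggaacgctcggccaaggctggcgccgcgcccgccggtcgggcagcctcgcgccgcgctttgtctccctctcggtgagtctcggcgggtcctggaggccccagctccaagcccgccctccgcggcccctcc
Dlk1: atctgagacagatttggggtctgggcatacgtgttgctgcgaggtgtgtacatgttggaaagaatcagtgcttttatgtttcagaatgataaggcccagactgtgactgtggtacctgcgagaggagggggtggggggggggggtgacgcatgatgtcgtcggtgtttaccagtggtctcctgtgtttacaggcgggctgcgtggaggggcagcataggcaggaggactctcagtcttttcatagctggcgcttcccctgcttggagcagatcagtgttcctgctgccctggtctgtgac
The Socs3 window held 1 match, TTCTTAGAA, 154 bases before the start. The Dlk1 window held 0 matches, which says only that these letters are not in it. Of the genes tested, 11076 had a promoter sequence and 905 of these held the motif (8.17%). Among 23 genes of a list of known STAT3-induced genes with a promoter sequence, 7 held it (30.4%). Of the 12 named genes with the smallest p in each direction, 10 had a sequence in each case, and 1 held the motif among the higher genes and 1 among the lower genes.

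Expected counts, the estimated numbers of reads per gene, summed to between 9404448 and 10253038 in the 6 libraries, over 16337 to 16899 listed genes. Across genes, the libraries correlated with Spearman's rho between 0.915 and 0.984, and every pair differed by more than sampling noise, with chi-square values of 17.3 to 116 for each degree of freedom. A principal component analysis of the 6 libraries gave a leading component that held 52.0% of the variance and did not separate the groups: replicate 3 of hemin with IL-10 scored 45.1 and replicate 3 of hemin 58.9, while replicate 1 of hemin with IL-10 scored −60.1 and replicate 1 of hemin −26.4. Hemin replicate 1 stood apart on the second component, with a score of 58.0 against −31.6 to 1.06 for the other 5. In that library the shortest of 5 equal groups of genes by transcript length (median 1322 bases) deviated by 0.22 log2 units from the average of the 6 libraries and the longest (median 6701 bases) by −0.28, against deviations of −0.19 to 0.12 in the other 5 libraries. Replicate 1 of hemin with IL-10 deviated the other way, by −0.19 for the shortest and 0.10 for the longest. Between the groups, the median log2 change was −0.10 for the shortest genes and 0.07 for the longest. For many genes and lists with a marked dependence on hemin replicate 1, values without that library are given, but not for all.

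Lineage markers were present, beside genes of astrocytes and neurons. Olig1 and Olig2, transcription factors of the oligodendrocyte lineage, stood at 66.5, 100 and 179 FPKM and at 55.5, 48.7 and 48.6 FPKM in hemin with IL-10, against 184, 109 and 194 FPKM and 51.8, 22.5 and 21.3 FPKM in hemin. FPKM values are per transcript length, so levels of different genes can be compared. Pdgfra, the growth factor receptor that defines the progenitor, had 7.02, 4.70 and 38.8 FPKM with IL-10 and 15, 19.7 and 23.6 FPKM in hemin, below its mean of 80.7 FPKM in vehicle. Sox10, a further lineage factor, had 5.52, 18.1 and 42.4 FPKM with IL-10 and 16.1, 18 and 40.4 FPKM in hemin, and Cspg4, which encodes the progenitor proteoglycan NG2, had 2.05, 2.02 and 9.08 FPKM against 3.35, 3.52 and 4.94 FPKM. Gfap, an astrocyte filament gene, exceeded Olig2 and Pdgfra in several libraries, at 73.6, 203 and 6.04 FPKM with IL-10 and 249, 63.3 and 28.8 FPKM in hemin. The neuronal tubulin Tubb3 had 20.3 to 37.9 FPKM with IL-10 and 12.8 to 39.0 FPKM in hemin. The microglial genes Csf1r and Cx3cr1 had 0.17 to 1.74 FPKM with IL-10 and 0.84 to 3.94 FPKM in hemin.

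The following values are CPM, read counts scaled to library size with the factors of the trimmed mean of M values (TMM), which compare a gene between libraries but not genes with each other. Dlk1 encodes delta-like non-canonical Notch ligand 1, an imprinted gene whose membrane-bound product restrains the differentiation of several cell types, among them fat cells. It stood at 44.5, 67.0 and 96.2 CPM with IL-10 and at 8.82, 7.07 and 5.81 CPM in hemin. The groups did not overlap, and the lowest value with IL-10 was above the highest hemin value. The means were 69.2 ± 26.0 CPM with IL-10 and 7.24 ± 1.51 CPM in hemin (SD, n = 3 each). This is a log2 change of 3.26 (SE 0.43, 95% CI 2.33 to 4.18, edgeR adjusted p 0.0735), higher in 3 of 3 pairs of same-numbered libraries. The values rest on 412, 636 and 953 counts with IL-10 and 89, 69 and 58 counts in hemin.

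With the replicate number as a block in all 12 libraries, Dlk1 passed the test, with a log2 change of 3.13 and an edgeR adjusted p of 0.0287, and it was the only gene that did (1 gene, 0.00716% called). It also passed with DESeq2 (adjusted p 7.68e-11) and in edgeR without the filter on low counts (adjusted p 0.0152). In the other alternatives it did not pass, and over all of them its adjusted p ran from 7.68e-11 to 0.849 and its log2 change from 2.91 to 3.49. Leaving out any 1 of the 6 libraries left it short of the threshold. The other groups place both levels: Dlk1 had 39.9, 95.1 and 78.9 CPM with hemin, IL-10 and stattic, and 47.8, 72.9 and 109 CPM in vehicle. The hemin libraries thus stood apart from the other 9, and the values with IL-10 overlapped those of vehicle. The comparisons that follow share libraries with the one of IL-10 and are given only side by side. The log2 change of hemin minus vehicle was −3.40 (edgeR adjusted p 0.000586), that of hemin with IL-10 minus vehicle −0.15 (adjusted p 0.822), and that of stattic added to hemin and IL-10 0.04 (adjusted p 0.988). Only the first of these 3 passed the test.

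**Figure D1:**
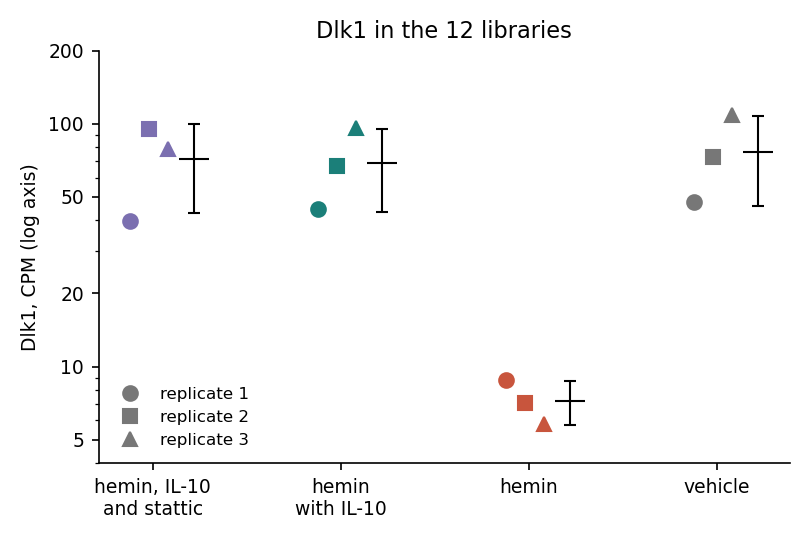
Dlk1 in each of the 12 libraries in CPM, on a log axis, with symbols for replicate numbers, and the mean with its SD (n = 3) beside each group. The 3 hemin libraries lie between 5.81 and 8.82 CPM, and those with IL-10 between 44.5 and 96.2 CPM, within the range of the vehicle and stattic libraries at 39.9 to 109 CPM.

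**Figure D2:**
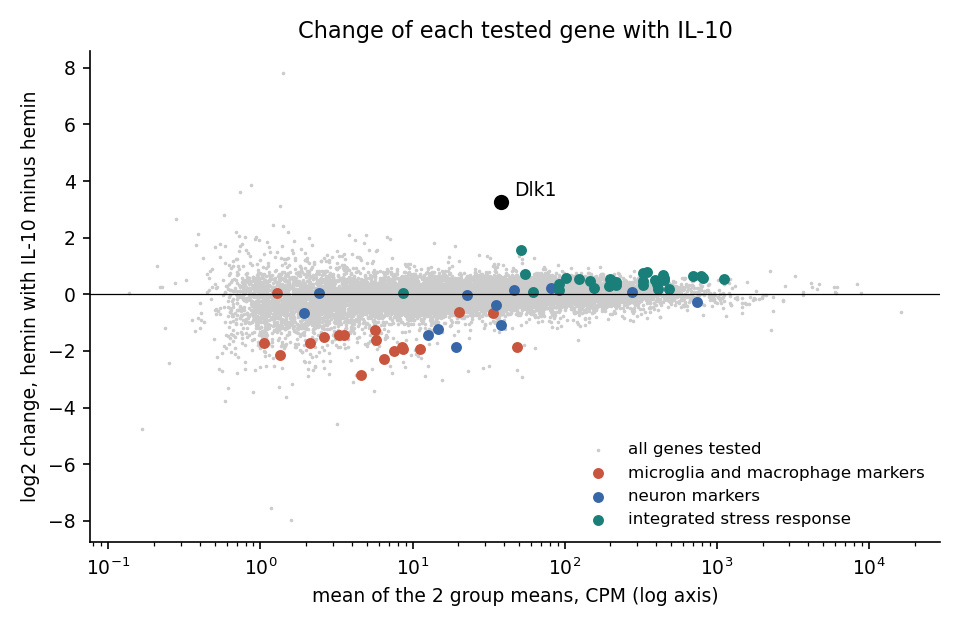
Log2 change of hemin with IL-10 minus hemin for each of the 13967 genes tested (vertical axis) against the mean of both group means in CPM (horizontal log axis). Most genes scatter around 0, Dlk1 stands alone at a mid level with 3.26, microglia and macrophage markers lie mostly below 0, and the genes of the integrated stress response lie above it. The few points beyond ±4 are genes with few or no counts in 1 group.

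Genes of the IL-10 receptor and its signalling were mostly a little lower with IL-10, and none passed the test. Of 20 tested genes of the receptor, the JAK kinases, the STAT factors and their inhibitors, 0 were called, 18 had a log2 change below 0, and the median was −0.20, against −0.01 over all genes tested. Il10ra, the chain that binds IL-10, had 1.83, 0.842 and 0.909 CPM with IL-10 and 2.97, 1.54 and 0.501 CPM in hemin, which are 17, 8 and 9 counts against 30, 15 and 5. Per length this is 0.25 to 0.51 FPKM with IL-10 and 0.15 to 0.85 FPKM in hemin, and the log2 change was −0.48 (SE 0.61, unadjusted p 0.443), and 0.24 without hemin replicate 1. Il10rb, the shared second chain, stood at 3.24, 4.95 and 3.23 CPM with IL-10 and 6.35, 5.02 and 3.41 CPM in hemin, or 1.70 to 2.76 FPKM against 2.04 to 3.54 FPKM. The transcript of IL-10 itself was at 0, 1 and 0 counts with IL-10 and 0, 1 and 1 counts in hemin.

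Stat3 had 175, 190 and 178 CPM with IL-10 and 176, 210 and 298 CPM in hemin, a log2 change of −0.33 with a 95% CI of −0.86 to 0.19. The groups overlapped. Socs3 stood at 17.7, 26.7 and 10.9 CPM with IL-10 and at 26.9, 28.0 and 35.1 CPM in hemin. The groups did not overlap, but only narrowly, with 26.7 CPM as the highest value with IL-10 and 26.9 CPM as the lowest in hemin. Its log2 change was −0.70 (SE 0.34, 95% CI −1.44 to 0.04, unadjusted edgeR p 0.0618), so a rise of Socs3 larger than 0.04 log2 units lies outside the interval. With 1 library left out at a time it ran from −1.06 to −0.43. With hemin, IL-10 and stattic it had 28.1, 26.0 and 16.0 CPM, and in vehicle 14.4, 12.2 and 8.66 CPM. The 2 genes of the list with unadjusted p under 0.05 were lower with IL-10. Stat6, the factor of IL-4 signalling, had 2.27, 1.47 and 1.62 CPM with IL-10 and 8.73, 3.79 and 3.11 CPM in hemin (log2 change −1.54, and −0.94 without hemin replicate 1). Ptpn6, the blood-cell phosphatase SHP-1 that dampens receptor signalling, had 0.971, 1.26 and 2.73 CPM with IL-10 and 5.65, 4.92 and 2.91 CPM in hemin (−1.43).

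Among 24 tested genes that STAT3 is known to induce, 0 were called, 9 were above 0 and 15 below, with a median of −0.25. The direction rested on single libraries: the median was 0.13 with 14 of 24 above 0 without hemin replicate 1, and 0.08 with 12 of 24 above 0 without replicate 3 of hemin with IL-10. The member with the smallest p was Junb, an AP-1 gene, with 95.1, 102 and 74.6 CPM with IL-10 and 125, 150 and 158 CPM in hemin (log2 change −0.67). Lcn2, which encodes the iron-carrying lipocalin, was near 0 in both groups, at 0 to 1.05 CPM with IL-10 and 0 to 3.77 CPM in hemin. Of 20 genes that IL-10 induces in macrophages, 13 were tested and 0 called, 9 of these were below 0, and the median was −0.65. Without hemin replicate 1 the median was 0.19, with 8 of 15 tested genes above 0, and without replicate 3 of hemin with IL-10 it was −0.37. Marco, a scavenger receptor of macrophages, had 0.755, 1.68 and 0.606 CPM with IL-10 and 17.9, 3.59 and 0.801 CPM in hemin, where the high mean rests on hemin replicate 1 (log2 change −2.86, and −1.09 without that library). Zfp36, the mRNA decay factor through which IL-10 limits cytokine transcripts in macrophages, had 77.2, 59.5 and 25.5 CPM with IL-10 and 75.7, 105 and 92.6 CPM in hemin. Bcl3 could not be tested, with 0, 1 and 2 counts with IL-10 and 7, 5 and 3 counts in hemin. The IL-6 family, which also signals through STAT3, had 12 tested genes, 9 of them below 0, and a median of −0.27, which was −0.06 without hemin replicate 1 and −0.01 without replicate 3 of hemin with IL-10. Cntfr, the receptor of ciliary neurotrophic factor, had 14.1 to 17.6 CPM with IL-10 and 19 to 25.9 CPM in hemin. Il11, a cytokine of this family, had 18.3, 19 and 13.7 CPM with IL-10 and 18.1, 7.89 and 3.51 CPM in hemin, higher in 3 of 3 pairs. Its log2 change was 0.79 (unadjusted edgeR p 0.146), and 1.59 without hemin replicate 1.

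After Dlk1, the genes with the smallest p among those higher with IL-10 and not overlapping had modest changes, and none was called (adjusted p 0.999 each). Tafa2, a secreted chemokine-like protein of the brain, had 25.7, 20.8 and 24.6 CPM with IL-10 and 11, 10.4 and 10.8 CPM in hemin. Its replicates were close in both groups, and the log2 change was 1.14 (SE 0.31, unadjusted p 0.00325). Ecel1, a neuronal endopeptidase, had 8.74, 6.95 and 6.66 CPM with IL-10 and 3.07, 2.66 and 0.601 CPM in hemin (log2 change 1.81). Kcnh1, a voltage-gated potassium channel, had 15.9, 4.74 and 3.64 CPM with IL-10 and 2.28, 2.05 and 1.3 CPM in hemin (2.10), with replicate 1 above the other two and a log2 change of 1.15 without it. Adam1a, a metallopeptidase-family gene, had a log2 change of 1.42 and the BTB-domain gene Btbd11 one of 1.00. The other 6 had smaller changes, from 0.53 to 0.73: Kat14 (a subunit of the ATAC acetyltransferase complex, 0.53), Slc35f5 (a solute carrier, 0.55), Asb1 (a SOCS-box protein, 0.59), Zdhhc7 (a palmitoyltransferase, 0.66), Podxl (the sialomucin podocalyxin, 0.68) and Ints9 (a subunit of the Integrator complex, 0.73).

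The 12 named genes with the smallest p among those lower with IL-10 were not called either. Sncaip, which encodes the synuclein partner synphilin-1, had 6.69, 5.79 and 10.4 CPM with IL-10 and 18.5, 14.1 and 25.0 CPM in hemin. Its log2 change was −1.33 (SE 0.31, unadjusted p 0.00109, adjusted p 0.999), the smallest p of these. Gria1, the AMPA-type glutamate receptor subunit GluA1, had 4.32, 6.11 and 2.83 CPM with IL-10 and 22.6, 17.3 and 10.6 CPM in hemin (log2 change −1.93). Both groups of Gria1 were well apart, with the hemin values near the vehicle mean of 16.1 CPM. Synpr and Nsg2, genes of synaptic and neuronal vesicles, had log2 changes of −1.49 and −1.14. Dpysl5, a semaphorin-pathway protein of growing axons, Mturn, a regulator of neural differentiation, and Adarb2, a brain relative of the RNA-editing enzymes, had −1.19, −0.99 and −1.86. Pcsk1, the prohormone convertase, had 1.08, 2.21 and 1.62 CPM with IL-10 and 5.26, 7.99 and 3.21 CPM in hemin (−1.74), above its vehicle mean of 0.310 CPM in both. Cyp2j9, a cytochrome P450, had −1.28. The myeloid genes Fcer1g, the signalling chain of Fc receptors, and Clec7a, the β-glucan receptor dectin-1, had −2.84 and −2.33, and −1.54 and −1.63 without hemin replicate 1. Tgfbi, a matrix protein that TGF-β induces, had 0.971, 1.16 and 4.14 CPM with IL-10 and 24.7, 6.35 and 5.61 CPM in hemin (−2.54, and −1.50 without hemin replicate 1).

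Microglia and macrophage markers were the list with the lowest median. Of 19 markers 18 were tested and 0 called. The log2 change was below 0 for 17 of them and the median was −1.72, against −0.01 over all genes. Values with IL-10 lay below all hemin values for 10 of 18, against 5.08% of all genes, and 11 had an unadjusted p under 0.05, against 1.87%. All 3 pairs of same-numbered libraries were lower with IL-10 for 16 of 18, and the list's median difference was −1.96, −1.11 and −1.02 log2 units in pairs 1, 2 and 3. The 11 were Itgam, Ptprc, Tyrobp, Fcer1g, C1qa, C1qb, C1qc, Ctss, Laptm5, Spi1 and Lyz2, which include the 3 chains of complement C1q and the myeloid master regulator PU.1. Fcer1g had 1.51, 0.948 and 0.909 CPM with IL-10 and 17.7, 3.38 and 3.21 CPM in hemin. Lyz2, the lysozyme of macrophages, had 27.2, 18.7 and 17.2 CPM with IL-10 and 144, 47.5 and 35.2 CPM in hemin. Ctss, a lysosomal protease of microglia, had 5.18, 3.58 and 5.15 CPM with IL-10 and 32.4, 10.4 and 10.4 CPM in hemin. In each of these genes hemin replicate 1 was the highest, and the other hemin libraries also lay above all 3 with IL-10. The log2 change without hemin replicate 1 was −0.96 for Lyz2 and −1.15 for Ctss.

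Summed over the 19 markers, the level was 134, 88.1 and 67.2 CPM with IL-10 and 452, 187 and 136 CPM in hemin. The lowest hemin value was thus just above the highest with IL-10. With stattic added the sum was 200, 377 and 236 CPM, and in vehicle 92.4, 86.4 and 36.7 CPM. Without hemin replicate 1 the median was −1.01 in place of −1.72, 10 of 18 did not overlap, against 12.6% of all genes in that setting, and 1 in place of 11 had an unadjusted p under 0.05. That number was 7 without replicate 2 or replicate 3 of hemin with IL-10. Of all genes, 1.76% were lower at that p without hemin replicate 1. The share was 1.49% without replicate 2 and 4.21% without replicate 3 of hemin with IL-10. With the replicate block in the 6 libraries, 15 of 16 tested markers had an unadjusted edgeR p under 0.05 and were lower. Of all genes 6.25% did in that setting, and none was called. P2ry12 and Tmem119, markers of resting microglia, were at 0.13 to 0.94 and 0.05 to 0.36 FPKM with IL-10 and 0.25 to 0.86 and 0.25 to 1.60 FPKM in hemin, and Aif1 was listed at 0 in replicate 3 of hemin with IL-10. In RNA from a whole culture, fewer cells of a type and less RNA per cell cannot be told apart.

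Fibroblast and vascular markers gave the next lowest median, −1.38 over 11 tested genes, with 0 called and 3 at an unadjusted p under 0.05. Here hemin replicate 1 carried much of the difference: the summed level was 45.2, 67.2 and 99.6 CPM with IL-10 and 417, 94.4 and 101 CPM in hemin. Without hemin replicate 1 the median was −0.54, still below 0, and 0 genes had an unadjusted p under 0.05. Without replicate 3 of hemin with IL-10 they were −2.72 and 6, in a setting where 4.21% of all genes were lower at that p and 2.61% higher. Col3a1, a fibrillar collagen, had 4.32, 6.84 and 28.7 CPM with IL-10 and 208, 22.5 and 23.0 CPM in hemin. Dcn, the proteoglycan decorin, had 1.94, 0.737 and 1.82 CPM with IL-10 and 22.5, 2.56 and 2.70 CPM in hemin, and Pdgfrb, a pericyte receptor, had 1.40, 2.95 and 3.33 CPM against 35.5, 3.89 and 6.71 CPM. Leaving out hemin replicate 1 gave log2 changes of −0.77 for Col3a1, −0.80 for Dcn and −1.04 for Pdgfrb, in place of −2.67, −2.62 and −2.58. Neuron markers split: of 12 tested, 0 were called, 8 were below 0 and the median was −0.32, while 4 had an unadjusted p under 0.05, all lower with IL-10. These were Syt1, Stmn2, Gad1 and Dcx. Dcx, the microtubule protein of young neurons, had 12.3, 23.2 and 37.5 CPM with IL-10 and 51.1, 47.6 and 57.8 CPM in hemin. Gad1, which makes the transmitter GABA, had 4.86, 9.58 and 11.9 CPM against 25.7, 14.2 and 22.4 CPM, and Syt1, the calcium sensor of synaptic vesicles, 7.01, 7.58 and 5.55 CPM against 22.7, 22.8 and 9.82 CPM. The sum over the 12 neuron markers overlapped, at 1232, 1008 and 1367 CPM with IL-10 and 1224, 1520 and 1419 CPM in hemin. Astrocyte markers had 10 tested genes, 0 called, 9 below 0, and a median of −0.41. Fgfr3, a growth factor receptor, the aldolase Aldoc and the folate enzyme Aldh1l1 had log2 changes of −0.64, −0.68 and −0.60, with overlapping groups. That of Aldoc was −0.06 without hemin replicate 1.

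**Figure D3:**
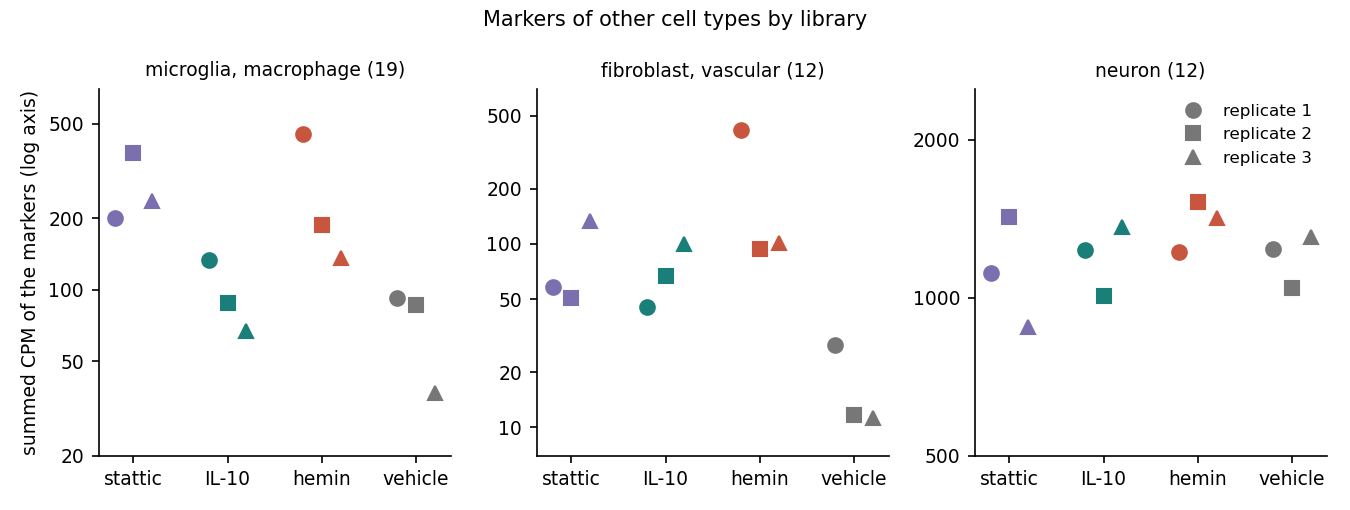
Summed CPM (log axes) of the markers of microglia and macrophages, of fibroblasts and vascular cells, and of neurons in each library, with stattic for hemin, IL-10 and stattic, and IL-10 for hemin with IL-10. The microglia and macrophage sum lies at 67.2 to 134 CPM with IL-10 and 136 to 452 CPM in hemin, the fibroblast sum is high in hemin replicate 1 alone, and the neuron sums overlap.

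Inflammatory genes were mostly below 0. Of 31 inflammatory cytokines and NF-kB targets 22 were tested, 0 called and 21 below 0, with a median of −0.46, and 5 had an unadjusted p under 0.05 (Cxcl1, Ccl3, Ccl4, Ccl5 and Nfkbiz). The chemokine Cxcl1 had 0.324, 2.95 and 1.31 CPM with IL-10 and 9.12, 3.79 and 4.21 CPM in hemin. Ccl4, a chemokine of activated microglia, had 0.324, 0.316 and 0.303 CPM against 3.77, 0.922 and 0.902 CPM, and Ccl5 had 0.432, 0.105 and 0.101 CPM against 7.64, 0.307 and 0.301 CPM. In both of these chemokines hemin replicate 1 stood well above the other two, and without it the log2 change was −1.49 for Ccl4 (−2.52 with it) and −0.49 for Ccl5 (−3.63 with it). Interferon-stimulated genes had 16 tested members of 25, 0 called, 15 below 0 and a median of −0.83, and 4 had an unadjusted p under 0.05 (Irf1, Cxcl10, Usp18 and Ifi27). Cxcl10, a chemokine that draws T cells, had 9.39, 13.6 and 7.47 CPM with IL-10 and 24.1, 27.5 and 31.1 CPM in hemin. The groups did not overlap, the means were 10.1 ± 3.13 CPM with IL-10 and 27.5 ± 3.48 CPM in hemin (SD, n = 3 each), and the log2 change was −1.44 (SE 0.50, unadjusted p 0.0142). Ifi27 had 2.70, 3.47 and 2.22 CPM with IL-10 and 37.6, 4.30 and 1.90 CPM in hemin, and Usp18, which removes the modifier ISG15, had 1.19, 2.11 and 0.909 CPM against 12.0, 2.46 and 0.902 CPM. Without hemin replicate 1 the log2 change was −0.14 for Ifi27 (−2.38 with it) and −0.25 for Usp18 (−1.86 with it), and it was −1.52 for Cxcl10. In the same setting the median of the interferon list was −0.24 with 4 of 16 genes above 0, and that of the inflammatory list −0.29. With 1 library left out at a time, the genes with an unadjusted p under 0.05 numbered 1 (without hemin replicate 1, or replicate 1 or 3 of hemin with IL-10) to 7 (without hemin replicate 3) in the interferon list, and 2 (without replicate 1 or 2 of hemin with IL-10) to 5 (without hemin replicate 3) in the inflammatory list. The inflammatory list without hemin replicate 1 had 2 such genes lower and 1 higher with IL-10. Of all genes, the share lower at that p ran from 1.08% (without replicate 1 of hemin with IL-10) to 4.21% (without replicate 3 of that group). The interferon list summed to 90.6, 112 and 77.5 CPM with IL-10, 227, 129 and 136 CPM in hemin, and 108, 96.6 and 97.9 CPM with stattic added. The inflammatory list summed to 814, 754 and 374 CPM, 961, 818 and 603 CPM, and 988, 433 and 415 CPM in the same order. The sum of microglia and macrophage markers, given above, was also lower with IL-10 than in hemin, but it was higher with stattic added than with IL-10 in every library. Its part in both lists was not tested.

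Immediate early genes, which AP-1 and related factors represent, had 26 tested members, 0 called, 18 below 0, and a median of −0.14. Without replicate 1 of hemin with IL-10 all 26 were below 0 (median −0.39), and without replicate 3 of that group 13 were above 0 (median 0.01). Fos had 213, 244 and 127 CPM with IL-10 and 237, 377 and 503 CPM in hemin. It was lower with IL-10 in 3 of 3 pairs, but the groups overlapped (log2 change −0.94, unadjusted p 0.00993, adjusted p 0.999). Egr3, a zinc-finger factor, had 12.9, 16.0 and 38.9 CPM with IL-10 and 24.2, 41.2 and 89.3 CPM in hemin, with each library below the hemin library of its own number.

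Among genes of the heme response, no difference was called. Hmox1, the inducible heme oxygenase, had 10945, 7076 and 2164 CPM with IL-10 and 8208, 6294 and 2502 CPM in hemin, against a mean of 39.0 ± 15.3 CPM in vehicle. The groups overlapped over a wide range, and in both replicate 1 was highest and replicate 3 lowest (log2 change 0.25, 95% CI −1.13 to 1.62). Of 32 tested genes of heme and iron handling, 0 were called, 16 were above and 16 below 0, and the median was −0.00. The ferroxidase Cp had 2.81, 4.11 and 4.95 CPM with IL-10 and 37.1, 9.84 and 4.01 CPM in hemin, the iron carrier Trf 18.6, 31.0 and 19.1 CPM against 48.7, 73.3 and 17.1 CPM, and the heme synthesis enzyme Cpox 69.7, 61.6 and 29.6 CPM against 33.6, 35.9 and 17.5 CPM. Cp had a log2 change of −2.10, and −0.80 without hemin replicate 1. Cpox was higher in 3 of 3 pairs, with a log2 change of 0.89 and an unadjusted p of 0.0619. Ferritin heavy chain Fth1 stood at 2398, 1990 and 1012 CPM with IL-10 and 3128, 1950 and 953 CPM in hemin.

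Targets of NRF2, the master factor of the antioxidant response, had 29 tested members, 0 called, 26 above 0, and a median of 0.27. Slc7a11, the cystine importer, had 1524, 898 and 156 CPM with IL-10 and 767, 762 and 102 CPM in hemin, higher in 3 of 3 pairs although the spread within each group was larger than the difference. Keap1, the repressor of NRF2, and the exporter Abcc1 had log2 changes of 0.43 and 0.35, and Gclc, which makes glutathione, had one of −0.30. Keap1 and Abcc1 were at 0.73 and 0.63 without hemin replicate 1. Ferroptosis regulators had 21 tested members, 0 called, 10 above 0, and a median of −0.01. Gpx4, the lipid peroxide reductase that guards against ferroptosis, stood at 191, 227 and 165 CPM with IL-10 and 221, 233 and 179 CPM in hemin, with a log2 change of −0.12. Acsl4, which builds the lipids that ferroptosis consumes, had 84.5, 89.0 and 100 CPM against 68.9, 125 and 166 CPM. The transferrin receptor Tfrc had 70.7, 104 and 161 CPM with IL-10 and 118, 153 and 179 CPM in hemin, lower in 3 of 3 pairs. Aifm2, the ubiquinone reductase FSP1, had a log2 change of −0.45.

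The integrated stress response, in which the factor ATF4 turns on amino acid synthesis genes, transporters and tRNA synthetases, leaned one way with small changes. All 29 tested members had a log2 change above 0 (49.2% of all genes did), with a median of 0.49, but 0 were called and 0 had an unadjusted p under 0.05. In 16 of the 29 all 3 pairs were higher with IL-10, against 19.3% of all genes. Trib3, a pseudokinase of this pathway, had 143, 76.2 and 11.8 CPM with IL-10 and 31.4, 40.5 and 5.61 CPM in hemin. Asns, asparagine synthetase, had 624, 377 and 230 CPM with IL-10 and 333, 294 and 113 CPM in hemin, and Sars, the seryl-tRNA synthetase, had 770, 490 and 379 CPM against 438, 388 and 199 CPM. Each library with IL-10 was above the hemin library of its number in these 3 genes, while the groups overlapped. The list's median difference was 0.83, 0.13 and 0.40 log2 units in pairs 1, 2 and 3. Without replicate 1 of hemin with IL-10, 16 of 29 were above 0 and the median was 0.02. Both the size of the list's median and the shared direction of its members thus depended on that library. Its hemin partner stayed in that fit. The median was 0.21 without hemin replicate 3 and 0.75 without replicate 3 of hemin with IL-10. With the replicate block in the 6 libraries, where 5.04% of all genes had an unadjusted p under 0.05 and were higher, 15 of the 29 did, and none was called. Ddit3, the death-linked factor CHOP, had 315, 236 and 93.9 CPM with IL-10 and 177, 248 and 107 CPM in hemin. The median of the NRF2 list was −0.09 without replicate 1 of hemin with IL-10 and 9 of its 29 genes were above 0, and without hemin replicate 3 they were −0.06 and 12. It was 0.73 without hemin replicate 1 and 0.63 without replicate 3 of hemin with IL-10.

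The p53 targets had 22 tested members, 0 called, 18 above 0, and a median of 0.47, which was 0.01 without replicate 1 of hemin with IL-10 and 0.08 without hemin replicate 3, and 0.81 without replicate 3 of hemin with IL-10. Zmat3, an RNA-binding p53 target, had 369, 222 and 88.4 CPM with IL-10 and 174, 125 and 51.4 CPM in hemin, and Polk, a translesion polymerase, had 40.4, 33.4 and 28.4 CPM against 21.4, 27.8 and 19.5 CPM without overlap. Bbc3, the death gene PUMA, had a log2 change of 0.71. Heat shock proteins had 20 tested members, 0 called, 16 above 0, and a median of 0.29. Hspa1a, the inducible HSP70, had 4003, 6790 and 8330 CPM with IL-10 and 2610, 8384 and 5040 CPM in hemin, against a vehicle mean of 2.20 CPM. Hsph1, its exchange factor, had 3924, 2821 and 1765 CPM against 1116, 2647 and 1098 CPM, and the mitochondrial chaperonins Hspe1 and Hspd1 had log2 changes of 0.32 and 0.54. The unfolded protein response of the endoplasmic reticulum had 20 tested members, 0 called, 12 above 0, and a median of 0.13 (−0.05 without hemin replicate 3), with the degradation factor Sel1l at 0.72, the stress sensor Atf6 at 0.57 and the ubiquitin ligase Syvn1 at 0.36. Apoptosis regulators of the BCL2 family had 16 tested members, 0 called, 10 above 0, and a median of 0.16 (−0.01 without hemin replicate 1 or replicate 1 of hemin with IL-10). The death agonist Bid had 0.73, and 1.25 without hemin replicate 1. The survival gene Bcl2a1b was low, at 1.08, 0.211 and 0.202 CPM with IL-10 and 2.08, 0.512 and 0.801 CPM in hemin. The groups overlapped, and its log2 change of −1.18 became −0.39 without hemin replicate 1.

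**Figure D4:**
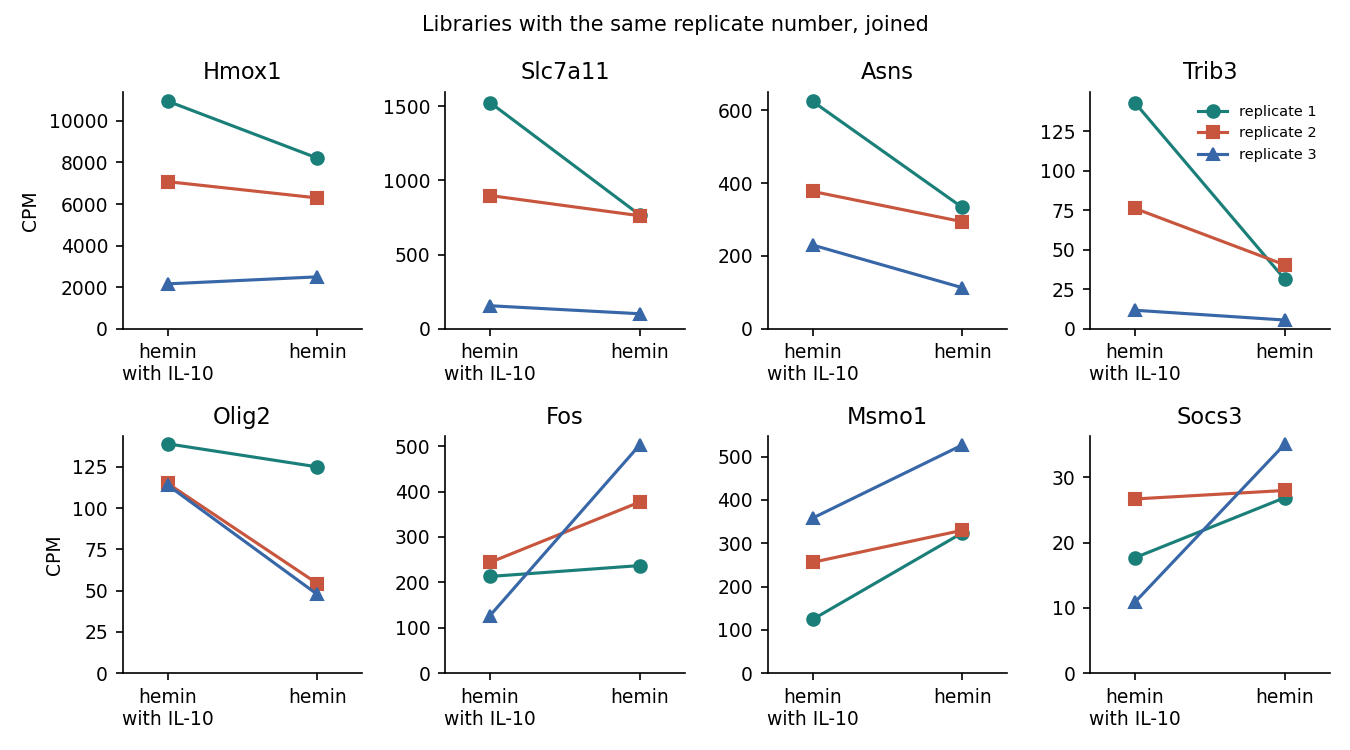
CPM of 8 genes in hemin with IL-10 (left) and hemin (right), with lines joining libraries of the same replicate number. Asns and Trib3 run downward from hemin with IL-10 to hemin in all 3 pairs and Msmo1, Fos and Socs3 upward. The groups overlap for every gene shown but Socs3. The spread between replicate numbers exceeds the difference between groups for Hmox1 and Slc7a11, and it is also wide for the other genes.

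No gene of the oligodendrocyte lineage passed the test. Of 23 tested progenitor markers 0 were called, 18 were below 0, and the median was −0.36. It was −0.02 without replicate 1 of hemin with IL-10, −0.04 without hemin replicate 3, and −1.02 without replicate 3 of hemin with IL-10. In that last setting 9 members had an unadjusted edgeR p under 0.05, and of all genes 4.21% did and were lower and 2.61% did and were higher. Olig2 had 139, 115 and 114 CPM with IL-10 and 125, 54.3 and 47.7 CPM in hemin, higher in 3 of 3 pairs, with a vehicle mean of 495 ± 141 CPM. Its log2 change was 0.69 (95% CI −0.32 to 1.71), and 1.27 without hemin replicate 1. Pdgfra had 47.8, 31.1 and 246 CPM with IL-10 and 95.4, 131 and 145 CPM in hemin, where replicate 3 with IL-10 stood above all hemin libraries and the other two below. Bcan, the matrix proteoglycan brevican, and Rlbp1, a retinoid carrier, had log2 changes of −0.40 and −0.72 and were lower in 3 of 3 pairs. Myelin and differentiation genes had 24 tested members, 0 called, 10 above 0, and a median of −0.02. The count moved with single libraries: 21 of 24 were above 0 without hemin replicate 3 (median 0.51), 23 of 25 without replicate 1 of hemin with IL-10 (0.29), and 5 of 25 without hemin replicate 1 (−0.38). Mbp, the basic protein of myelin, had 637, 1046 and 429 CPM with IL-10 and 20.1, 732 and 657 CPM in hemin, where hemin replicate 1 was far below the rest (log2 change 0.58, and 0.03 without that library). Cldn11, the tight junction claudin of myelin, had 23.8, 92.9 and 41.2 CPM against 6.35, 52.8 and 45.1 CPM. Nkx6-2 and Plekhh1, both tied to oligodendrocyte maturation, had log2 changes of 0.44 and 0.37.

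Growth factor and receptor genes of the lineage had 29 tested members, 0 called, 25 below 0, and a median of −0.24. Igf1, which microglia also make, had 3.35, 2.74 and 1.41 CPM with IL-10 and 9.82, 4.71 and 2.10 CPM in hemin (log2 change −1.15, and −0.44 without hemin replicate 1). The neurotrophin Bdnf had a log2 change of −0.70, and Id3, a BMP target that blocks differentiation, had 14.5, 17.1 and 16.0 CPM against 20.1, 21.8 and 41.7 CPM without overlap. In the Notch pathway, whose list holds Dlk1, 20 genes were tested, 0 called and 13 below 0, with a median of −0.25. Besides Dlk1, 3 of its genes had an unadjusted p under 0.05, and all were lower with IL-10: the ligand Dll4, the receptor Notch4 and the target Hey1. Hey1, a transcriptional repressor, had 56.3, 61.6 and 44.2 CPM with IL-10 and 87.1, 77.2 and 159 CPM in hemin (log2 change −0.99, unadjusted p 0.0314). Notch4, a receptor of the vessel wall, had 0.432, 0.948 and 0.909 CPM against 3.77, 1.33 and 2.70 CPM.

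Cholesterol synthesis leaned lower with small changes. Of 25 tested genes, 24 were below 0 and the median was −0.48, with 0 called and 0 at an unadjusted p under 0.05. All 3 pairs were lower with IL-10 in 21 of the 25 (18.2% of all genes). Msmo1, a sterol demethylating enzyme, had 124, 256 and 358 CPM with IL-10 and 324, 330 and 527 CPM in hemin, and Sc5d, a late desaturase, 84.6, 164 and 169 CPM against 159, 201 and 274 CPM. In both genes the groups overlapped, and each library with IL-10 was below the hemin library of its number. The median was −0.20 without replicate 1 of hemin with IL-10, −0.24 without hemin replicate 3, and −0.79 without replicate 3 of hemin with IL-10. With the replicate block in the 6 libraries, where 6.25% of all genes had an unadjusted p under 0.05 and were lower, 15 of the 25 did, and none was called. Cell division genes had 33 tested members, 0 called, 31 below 0, and a median of −0.41. The spindle motor Kif11 had 37.2, 37.6 and 66.2 CPM with IL-10 and 42.6, 80.3 and 92.6 CPM in hemin, and cyclin A2 (Ccna2) 42.0, 49.3 and 80.4 CPM against 66.4, 91.1 and 104 CPM. Cenpe, a motor of the kinetochore, had a log2 change of −0.62. Without replicate 2 of hemin the median of this list was −0.26.

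The AMPK and fatty acid synthesis list had 19 tested members, 0 called, 11 above 0, and a median of 0.01. Mlycd, which breaks down malonyl-CoA, had 20.4, 20.3 and 17.9 CPM with IL-10 and 15.7, 12.5 and 14.4 CPM in hemin without overlap. Camkk2, a kinase upstream of AMPK, and the AMPK subunit Prkab1 had log2 changes of 0.36 and 0.31, also without overlap. Hypoxia and glycolysis genes had 27 tested members, 0 called, 12 above 0, and a median of −0.04. Pfkp, a phosphofructokinase, had 128, 128 and 123 CPM with IL-10 and 94.9, 117 and 73.8 CPM in hemin, while the carbonic anhydrase Car9 had 0.971, 1.05 and 0.808 CPM against 9.62, 1.43 and 0.701 CPM, high in hemin replicate 1 alone (log2 change −2.04, and −0.17 without that library). Ankrd37, a hypoxia target, had a log2 change of −0.98. Autophagy and lysosome genes had 26 tested members, 0 called, 18 above 0, and a median of 0.10, with the vacuolar pump subunit Atp6v1h at 0.48, the autophagosome protein Gabarapl1 at 0.46 and Becn1, of the autophagy-initiating lipid kinase, at 0.29. Nuclear-encoded respiratory chain subunits had 28 tested members, 0 called, 23 below 0, and a median of −0.15. Sdhd, Cox6c and Uqcrfs1, subunits of complexes II, IV and III, had log2 changes of 0.57, −0.38 and −0.21. That of Sdhd was 1.11 without hemin replicate 1. Ribosomal proteins had 26 tested members, 0 called, 23 below 0, and a median of −0.08, with Rplp1 at −0.23, Rpl10 at −0.21 and Rpl27 at 0.14. Of the 26, 21 were above 0 without hemin replicate 1. The median difference of the ribosomal list was −0.63, −0.20 and 0.48 log2 units in pairs 1, 2 and 3. The 4 sex-linked genes tested had a median of −0.17 and 0 calls, and the Y-linked Eif2s3y, Kdm5d and Uty had 9.92 CPM or more in each of the 6 libraries.

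**Figure D5:**
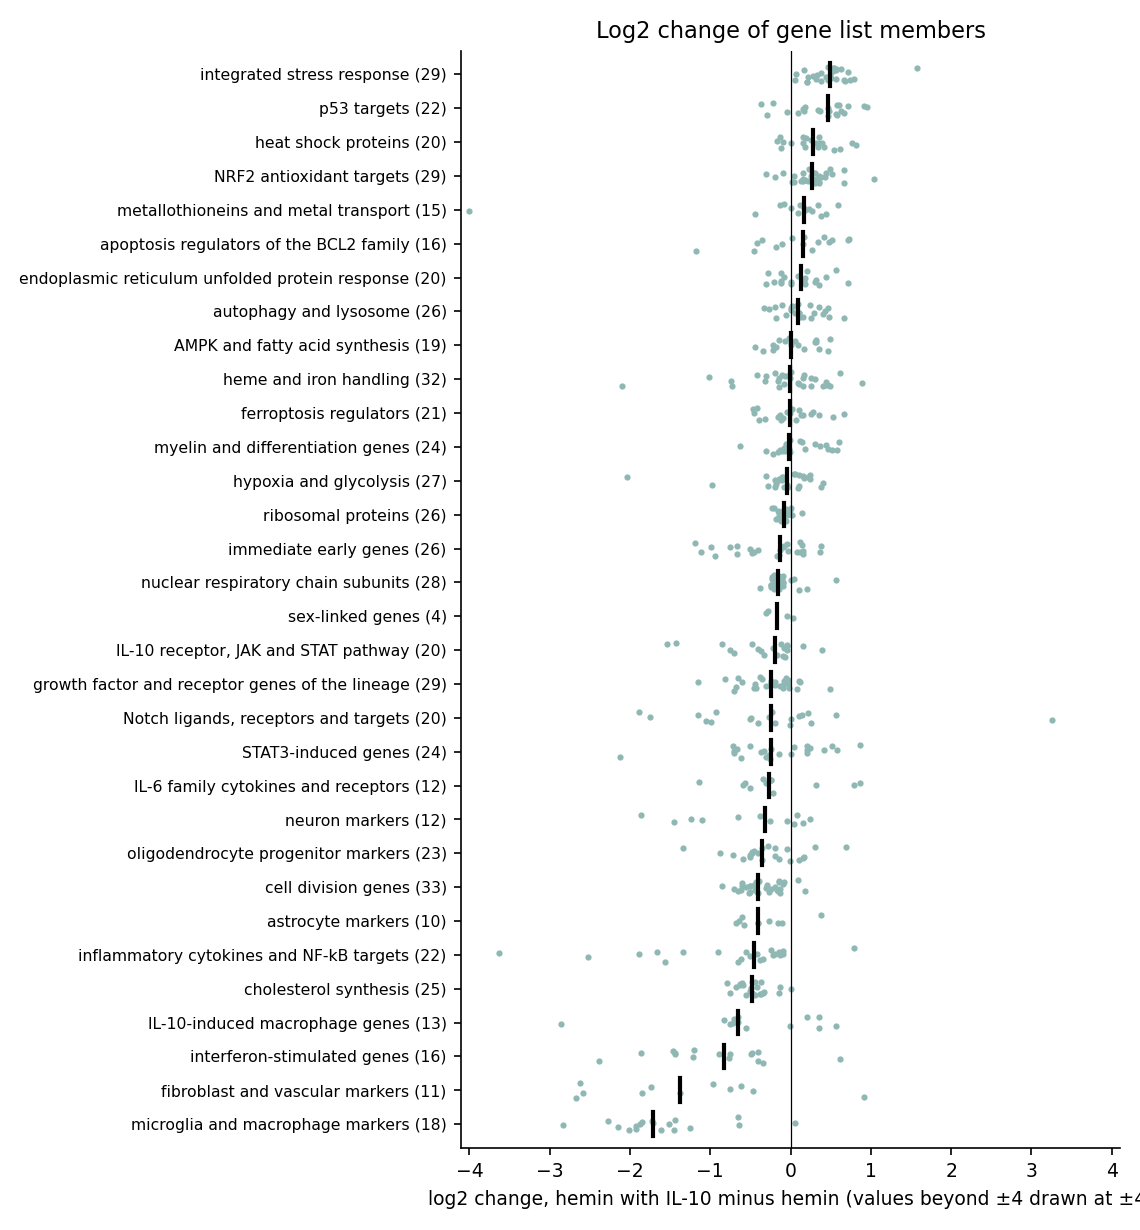
Log2 change of hemin with IL-10 minus hemin for each tested member of the gene lists (points) with the median of each list (bar), and the number tested in parentheses. Medians run from −1.72 for microglia and macrophage markers to 0.49 for the integrated stress response, and the single point far right in the Notch list is Dlk1.

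The metallothionein and metal transport list had 15 tested members, 0 called, 11 above 0, and a median of 0.17. It held the gene with the lowest fitted change. Slc30a10, a manganese exporter, had 0 counts in each of the 3 libraries with IL-10 and 5, 36 and 53 counts in hemin, or 0 CPM against 0.496, 3.69 and 5.31 CPM. Pooled over the hemin libraries and against a floor of 3 counts over the group, it was at least 30.1-fold lower with IL-10. This bound rests mainly on hemin replicates 2 and 3, as replicate 1 had only 5 counts. The edgeR adjusted p of Slc30a10 was 0.999, and DESeq2 gave 0.0227. It had 1.36, 0.838 and 0 CPM with stattic added and 7.89, 3.38 and 0.762 CPM in vehicle. The zinc and iron importer Slc39a14 and Mtf1, the metal-responsive factor, had log2 changes of 0.44 and 0.38. DESeq2 called 3 genes in all (0.0215%): Dlk1, Slc30a10 and H3c14. H3c14, which was named after its values were seen, is a histone H3 gene with near-identical copies. It had 14, 24 and 44 counts with IL-10 and 0 in each hemin library, while its copy H3c15 had 0 with IL-10 and 6, 36 and 28 in hemin. Summed over H3c13, H3c14 and H3c15 the level was 1.51, 2.53 and 4.44 CPM with IL-10 and 0.595, 3.69 and 3.41 CPM in hemin, so the groups overlapped, and which copy the reads came from is uncertain.

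The design bounds what these 6 libraries could show. The 95% CI of the log2 change lay within 1 unit of 0 for 6936 of 13967 genes (49.7%), so a change of more than 2-fold lies outside the interval for those genes, and its median half-width was 0.75. On simulated counts for this comparison, edgeR recovered 9% of 100 genes changed 2-fold and 75% of 100 changed 4-fold, with 5 false calls among 13812 genes. The changed genes were drawn from those with a hemin mean over 5 CPM, and genes were simulated independently, with no replicate effect. These figures therefore do not cover genes at lower levels or variation that libraries of the same number share.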

How the data were processed

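RNA-seq libraries of the 12 samples were grouped by the treatment in the labels. Each deposited file holds 2 values per gene, which its header calls expected count and FPKM and which the authors computed; the expected counts were not scaled to depth. The submitters' processing notes name RSEM, Bowtie2, HISAT and other tools with no version or role. Neither the genome build nor whether counting used strand is given in the sources used here. Reads of overlapping or antisense genes therefore cannot be separated. Genes that a file leaves out were set to 0 there.

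Expected counts were rounded and tested with edgeR 4.0.16 (R 4.3.3): filterByExpr, TMM, robust quasi-likelihood fit of all 12 libraries, 1 mean per group, Benjamini-Hochberg adjusted p under 0.05 over 13967 genes. DESeq2 1.42.0 and limma 3.58.1 on log2(FPKM + 1) were alternatives, among others in the closing section. The fit was checked on simulated data. Floors (3 counts over a group) cover counting error only.

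As a check of pairing, each library's deviation from its group mean (log2 CPM over genes) was compared between libraries that share a number, with correlations of 0.37 (replicate 1), 0.17 (replicate 2) and 0.61 (replicate 3); between libraries of different numbers they ran from −0.52 to 0.19, the highest above the matched value of replicate 2. All 3 matched values exceeded 0.1, so same-numbered libraries are described as pairs, although the labels do not give the meaning of the numbers. The main test did not use this pairing: it had 1 mean per group and no replicate term. A fit with the replicate number as a block was an alternative. Values with this block are given where they change a call, and for the integrated stress response, cholesterol synthesis and microglia lists. Other lists also had more genes at an unadjusted edgeR p under 0.05 with the block in the 6 libraries. Among them were 11 of 33 cell division genes (lower), 10 of 22 p53 targets and 7 of 29 NRF2 targets (higher). Of all genes, 6.25% were lower and 5.04% higher at that p.

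Named genes were up to 12 per direction with non-overlapping groups, a higher mean of at least 5 CPM and the smallest p (predicted gene models left out), up to 3 per list with the smallest p, and 18 always named; some genes that this rule took are not reported here. The comparison, the 32 lists and this rule were chosen with earlier results of these data known. Lists are described by counts and medians, with no test. Promoters are from RefSeq, build GRCm38.p6.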

Additional observations from a re-analysis of the deposited data

How the results depend on the processing

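The number of called genes was 0 in the main analysis and in 16 of 19 alternatives. These include leaving out each of the 6 compared libraries in turn, or stattic replicate 3 (0 to 0). The vehicle libraries and the other stattic libraries were not left out. DESeq2 called 3 genes (2 higher, 1 lower with IL-10), edgeR without the filter on low counts called 1 (1 higher, Dlk1), and edgeR with the replicate block in 12 libraries called 1 (1 higher, Dlk1). The replicate block changed no other call, and in the 6 libraries alone it left 0 calls (smallest adjusted p 0.212), with 1529 of 13541 genes at an unadjusted p under 0.05. Of 123 named genes, 14 changed the sign of their log2 change in some alternative, and none of these was called in any. Without hemin replicate 1 and stattic replicate 3, the log2 change was 0.33 for Fth1, −0.06 for Hspa1a, 0.25 for Il10ra and 0.30 for Rpl10. With the length correction it was 0.07 for Fth1 and 0.05 for Gpx4, with the length correction and the replicate block 0.05 and 0.03, and with the replicate block in 6 libraries 0.01 for Uty. Leaving out 1 library at a time, the log2 change ran from −0.08 to 1.03 for Cldn11, −0.11 to 0.64 for Ddit3, −0.55 to 0.23 for Eif2s3y, −0.50 to 0.32 for Fth1, −0.29 to 0.67 for Hmox1, −0.07 to 0.74 for Hspa1a, −0.92 to 0.24 for Il10ra and −0.60 to 0.23 for Kdm5d. It ran from −1.65 to 0.25 for Pdgfra, −0.51 to 0.30 for Rpl10, −0.04 to 0.45 for Rpl27, −0.04 to 1.16 for Slc7a11 and −0.26 to 0.38 for Uty. For the other 109 named genes the sign held in every alternative that gave a value. Of the 32 list medians, 12 changed sign in some alternative. That number leaves out heme and iron handling, whose median was −0.00 in the main analysis and ran from −0.08 to 0.20. The cause was not tested. With 3 libraries in each group, differences of 2-fold mostly lie below what the test could call.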
